A study of Mus musculus with 32 samples.

Results

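Cxcl12, Cxcr4, Ackr3, Erbb4, Nrg1 and Nrg3, genes of 2 signalling systems through which migrating cortical interneurons are guided, were described in single cells of the embryonic mouse dorsal telencephalon, the tissue that forms the cerebral cortex. They were chosen by symbol and are 6 of the 32285 genes in the tables; each symbol matched 1 row. Their levels were read in Gad2-detected, Eomes-detected, Neurod6-detected and Col1a2-detected cells, meaning cells with 3 or more UMIs of that gene, a UMI being 1 captured RNA molecule. The embryos were C57BL/6J mice, wild type (WT) or heterozygous for a loss of Chd8 (Chd8+/-, called het), taken at 4 embryonic stages: 2 earlier ones, E12.5 and E14.5, and 2 later ones, E16.0 and E17.5. Each genotype and stage had 4 libraries, 32 libraries in 8 groups, and every library came from the tissue of 1 embryo. Each WT embryo was matched with a het littermate of its sex, and these pairs are named here M1, M2, F1 or F2 for the sex and the replicate number. The het allele was present in the whole embryo, so all cell classes of a het library carried it. Medial tissue was left out at dissection, and nothing from the ventral telencephalon was sampled.

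Cortical interneurons are born in the ventral telencephalon and migrate tangentially into the cortex. The secreted chemokine Cxcl12 binds Cxcr4, a G protein-coupled receptor that drives the response, and Ackr3, an atypical receptor that takes up the ligand and adjusts how much Cxcr4 remains on the cell surface. Meninges and cortical intermediate progenitors are known sources of Cxcl12, which keeps interneurons within their migratory streams. Erbb4 is a receptor tyrosine kinase of these interneurons, and the neuregulins Nrg1 and Nrg3 are its ligands, as attractants and as cues for the choice of layer. Gad2 encodes an enzyme of GABA synthesis and marks interneurons, Eomes (Tbr2) marks intermediate progenitors, Neurod6 marks excitatory neurons, and Col1a2, a collagen chain, marks fibroblasts such as those of the meninges.

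The promoters of the ligand Cxcl12 and of the 3 receptors are shown because, from E14.5 on, the 3 receptors stood higher and the ligand lower in Gad2-detected cells than in Eomes-detected or Neurod6-detected cells. RefSeq sequences of build GRCm38.p6 were matched for 5 of the 6 members; Nrg1 had no entry. Each run holds the 250 bases before the annotated start, 5′ to 3′ on the strand of the gene. Capitals mark matches, on either strand, to TATAAA, the core of the TATA box, or to CCGCCC, the core of the GC box; where 2 matches overlap, 1 longer run is in capitals. The Cxcl12 window lies at chr6:117168285-117168534 (+), that of Cxcr4 at chr1:128592300-128592549 (-), that of Ackr3 at chr1:90203730-90203979 (+) and that of Erbb4 at chr1:69108060-69108309 (-).
Cxcl12 promoter: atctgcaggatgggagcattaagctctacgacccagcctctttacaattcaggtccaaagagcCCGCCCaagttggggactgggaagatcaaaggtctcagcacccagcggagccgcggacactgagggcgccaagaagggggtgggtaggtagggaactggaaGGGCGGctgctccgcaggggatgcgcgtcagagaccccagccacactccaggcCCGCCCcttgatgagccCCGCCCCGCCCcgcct
Cxcr4 promoter: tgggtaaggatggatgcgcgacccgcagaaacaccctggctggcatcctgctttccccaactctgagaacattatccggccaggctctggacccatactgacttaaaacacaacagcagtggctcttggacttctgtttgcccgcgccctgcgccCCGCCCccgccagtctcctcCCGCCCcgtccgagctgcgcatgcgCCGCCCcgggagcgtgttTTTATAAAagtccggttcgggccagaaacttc
Ackr3 promoter: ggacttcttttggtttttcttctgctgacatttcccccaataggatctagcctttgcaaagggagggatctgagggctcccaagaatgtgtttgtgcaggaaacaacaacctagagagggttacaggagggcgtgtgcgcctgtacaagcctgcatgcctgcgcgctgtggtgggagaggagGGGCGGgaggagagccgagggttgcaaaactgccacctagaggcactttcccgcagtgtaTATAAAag
Erbb4 promoter: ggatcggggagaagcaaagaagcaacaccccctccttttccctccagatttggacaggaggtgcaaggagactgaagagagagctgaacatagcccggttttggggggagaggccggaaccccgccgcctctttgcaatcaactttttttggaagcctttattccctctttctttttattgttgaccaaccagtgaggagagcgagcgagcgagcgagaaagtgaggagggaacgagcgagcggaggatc

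TATAAA was found in the Ackr3 window, 8 bases before the start, and in overlapping matches 32 and 30 bases before the start of Cxcr4, but not in those of Cxcl12 or Erbb4. Of all 32851 promoters of this length, 12.4% held it. CCGCCC was found 5 times before Cxcl12, 3 times before Cxcr4, 1 time before Ackr3 and not before Erbb4, against 32.7% of all promoters. The letters TAATTA (a homeodomain core, 4.84% of all promoters), CAGATG (an E-box of the Neurog and Neurod type, 14.4%) and TCACAC (a T-box core, 12.3%) were in none of the 4 windows. GC content was 64.4% for Cxcl12, 61.2% for Cxcr4 and 54% for both Ackr3 and Erbb4, beside a median of 52.4% over all promoters.

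By the GENCODE vM21 gene models (GRCm38), Cxcl12 spans 117168535 to 117181367 on chromosome 6, Cxcr4 128588199 to 128592293 and Ackr3 90203980 to 90216751 on chromosome 1. Erbb4 spans 68032186 to 69108059 on chromosome 1, Nrg1 31814551 to 32884029 on chromosome 8, and Nrg3 38368952 to 39473088 on chromosome 14. The first 3 overlap no other annotated gene. Erbb4 overlaps 8 genes on its own strand, Nrg1 overlaps 2 on the opposite strand, and Nrg3 overlaps 1 on its own strand and 3 on the opposite one, Nrg3os among them. Whether the counts used strand or intronic reads is not given in the sources used here, so reads of such partners cannot be told apart from those of these 3 genes.

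The 32 libraries held 1075297873 UMIs in 145082 barcodes, between 14710694 and 66499864 UMIs a library, and 138226 cells were retained, between 2399 and 6951 a library, with a median of 3916.5 to 10534 UMIs per cell. Chd8 itself was lower in het than in WT in 15 of 16 pairs (39.2 to 82.7 CPM, counts scaled to 1000000 UMIs, in WT; 19.3 to 71.4 CPM in het). The exception was F1 of E17.5, where the library labelled het held 71.0 CPM and the WT library 61.6 CPM; without that het library no genotype call of a member, averaged over stages, changed. Any 2 libraries shared between 0.221% and 1.21% of their barcodes. At E17.5, WT M1, het M1 and het F1 stood apart from the other libraries, so counts of called genes were also taken without them. By a code in the labels whose meaning is not given, the E17.5 libraries formed 2 sets, M1 with F1 and M2 with F2, each holding both genotypes. Het libraries at E12.5 had medians of 4089 to 10534 UMIs per cell and WT libraries 8558 to 10464.

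There were 1177 Gad2-detected cells, 17485 Eomes-detected, 69154 Neurod6-detected and 361 Col1a2-detected cells, and 61275 cells of none of these classes. The classes overlapped: 11171 cells were detected for both Eomes and Neurod6, 63.9% of the Eomes-detected and 16.2% of the Neurod6-detected cells. A level per library is given where the library had at least 10 cells of the class. Gad2-detected cells reached this in 26 of 32 libraries, at E12.5 only in WT M1 (23 cells), WT F1 (18 cells) and het M2 (29 cells). Col1a2-detected cells reached it in the 8 libraries of E12.5 and in WT M1 at E17.5. In whole-class sums, fewer cells of a type and less RNA per cell cannot be told apart; a CPM within a class does not depend on how many such cells there were. Each sum also holds free RNA of other cells.

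The class markers were checked against other markers of each type, in pooled WT cells. Gad2-detected cells held Dlx2, a transcription factor of the interneuron lineage, at 935 CPM at E12.5, 673 at E14.5, 636 at E16.0 and 689 at E17.5. Lhx6, which marks interneurons of the medial ganglionic eminence, was at 0, 269, 174 and 130 CPM at those stages. The interneuron list (7 genes) was detected for 6 members at E12.5, without Lhx6, and for all 7 later, with summed levels of 2134 to 3104 CPM. At E12.5 Gad2-detected cells also held 1043 CPM of the 6 radial glia markers, against 472 CPM at E14.5. Microglia markers were at 0 there at E12.5 and E14.5. Col1a2-detected cells matched fibroblasts at E12.5, with Col3a1 at 2630, Lum at 2373 and Dcn at 970 CPM. At E16.0 and E17.5 they did not: Dcn was at 0 and 34 CPM, whereas the endothelial gene Cldn5 was at 4450 and 2893 CPM and the 3 red blood cell genes summed to 22875 and 18272 CPM. Col1a2-detected cells are therefore read at E12.5 only.

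The chemokine ligand Cxcl12 was highest at E12.5 in Col1a2-detected cells, lower in Eomes-detected and Neurod6-detected cells, and lowest, from E14.5 on, in Gad2-detected cells. In WT Col1a2-detected cells at E12.5 it stood at 872, 699, 637 and 586 CPM for M1, M2, F1 and F2 (699 ± 124 CPM, SD, n = 4). The het libraries held 696, 775, 575 and 507 CPM (638 ± 120 CPM, SD, n = 4). The 2 genotypes overlapped, and every one of these libraries was above every Eomes-detected or Neurod6-detected library of any stage. Eomes-detected cells at E12.5 held 29.8 ± 8.07 CPM and Neurod6-detected cells 27.0 ± 6.51 CPM (SD, n = 4 each). Class differences were tested in the 16 WT libraries with edgeR's quasi-likelihood test across all genes (Benjamini-Hochberg adjusted p at most 0.05 is a call). The Eomes minus Col1a2 log2 difference was -4.43 (SE 0.10, adjusted p = 1.57e-38) and Neurod6 minus Col1a2 was -4.55 (SE 0.10, adjusted p = 4.7e-40).

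**Figure D1:**
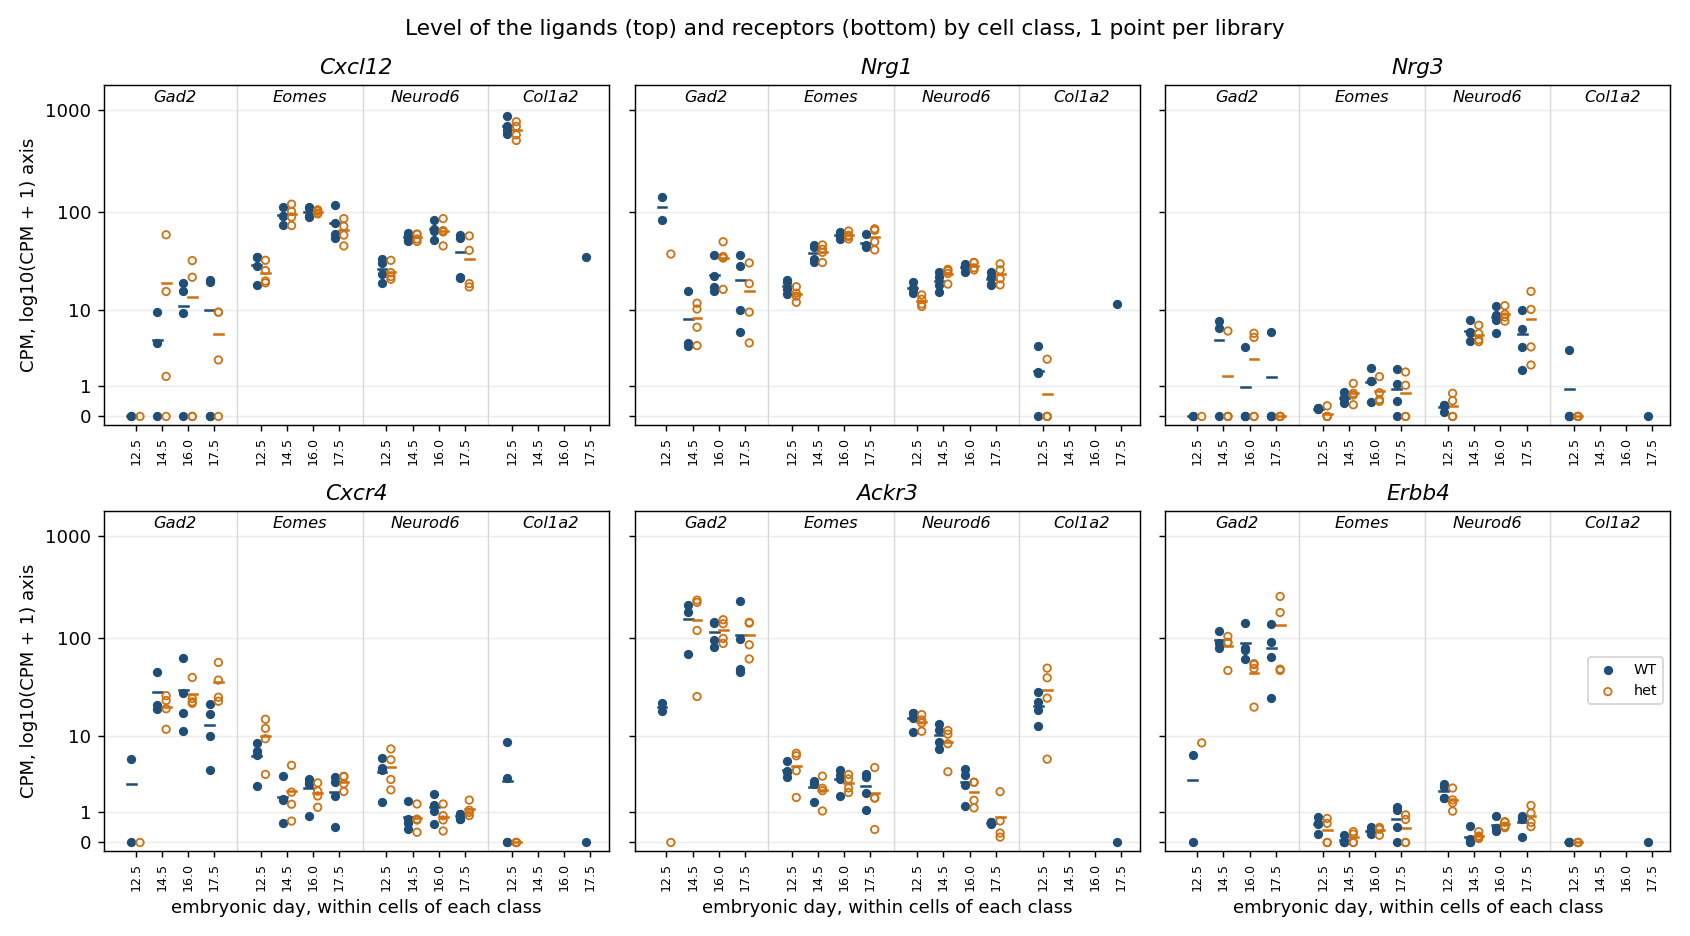
CPM of each gene per library (log10 of CPM + 1 axis) by cell class and stage, with the ligands Cxcl12, Nrg1 and Nrg3 in the upper row and the receptors Cxcr4, Ackr3 and Erbb4 in the lower row; filled blue points are WT libraries, open orange points het libraries and short bars group means, for libraries with at least 10 cells of the class. Cxcl12 stands highest in Col1a2-detected cells at E12.5 (507 to 872 CPM), and Ackr3 and Erbb4 stand highest in Gad2-detected cells from E14.5 on.

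From E12.5 to E14.5 Cxcl12 rose in Eomes-detected and Neurod6-detected cells. In WT Eomes-detected cells it reached 113, 92.1, 73.6 and 91.8 CPM (M1, M2, F1, F2) at E14.5 and 112, 109, 88.8 and 92.0 CPM at E16.0. At E17.5 the values were 55.4, 117, 60.5 and 78.1 CPM. All libraries of E14.5 and E16.0 lay above all of E12.5, and those of E17.5 were also above all of E12.5, with a wider spread. The change from E12.5 to E14.5 was 1.57 on the log2 scale (SE 0.20, adjusted p = 3.82e-07), a call that 28.0% of all genes tested in these cells shared. It was 0.49 (adjusted p = 0.52) when only cells detected for exactly 1 of the 4 markers were used. From E14.5 to E17.5, for which 25.3% of genes were called, it was -0.32 (adjusted p = 0.247), but 1.44 (adjusted p = 0.0224) in cells of exactly 1 class and -0.62 (adjusted p = 0.0209) without WT M2 of E17.5. Neurod6-detected cells held 55.9 ± 5.05 CPM at E14.5, 67.3 ± 12.8 at E16.0 and 39.6 ± 20.3 at E17.5 (SD, n = 4 each). There the change from E12.5 to E14.5 was 1.01 (SE 0.31, adjusted p = 0.0128; 32.1% of genes called), and that from E14.5 to E17.5 was -0.57 (adjusted p = 0.138; 36.2% called), or -0.88 (adjusted p = 0.031) without WT M2 of E17.5. The E17.5 sets did not overlap in Neurod6-detected cells: 17.6 to 22.3 CPM in M1 and F1 of both genotypes, and 41.5 to 59.7 CPM in M2 and F2. The former were back in or below the range of the E12.5 libraries (19.4 to 33.8 CPM in WT).

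The level of Cxcl12 depended on which of the 2 markers a cell held. Over the 16 WT libraries, cells detected for both Eomes and Neurod6 averaged 104 ± 42.8 CPM, cells with Eomes alone 20.8 ± 14.4 CPM and cells with Neurod6 alone 33.4 ± 15.8 CPM (SD over libraries). Cells with both markers, which lie between progenitor and neuron, were above each of the other 2 sets in 16 of 16 WT libraries and in 16 of 16 het libraries. The Eomes minus Neurod6 difference followed the way the overlap was handled: it was 0.53 (SE 0.05, adjusted p = 9.63e-14) over whole classes and -0.85 (adjusted p = 3.3e-12) over cells of exactly 1 class. By stage, over whole classes, it was 0.12 at E12.5 (adjusted p = 0.469), 0.64 at E14.5 (adjusted p = 9.84e-10), 0.49 at E16.0 (adjusted p = 3.29e-07) and 0.86 at E17.5 (adjusted p = 1.35e-09). For this contrast 42.5%, 57.2%, 62.5% and 55.6% of all genes were called at those stages.

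**Figure D2:**
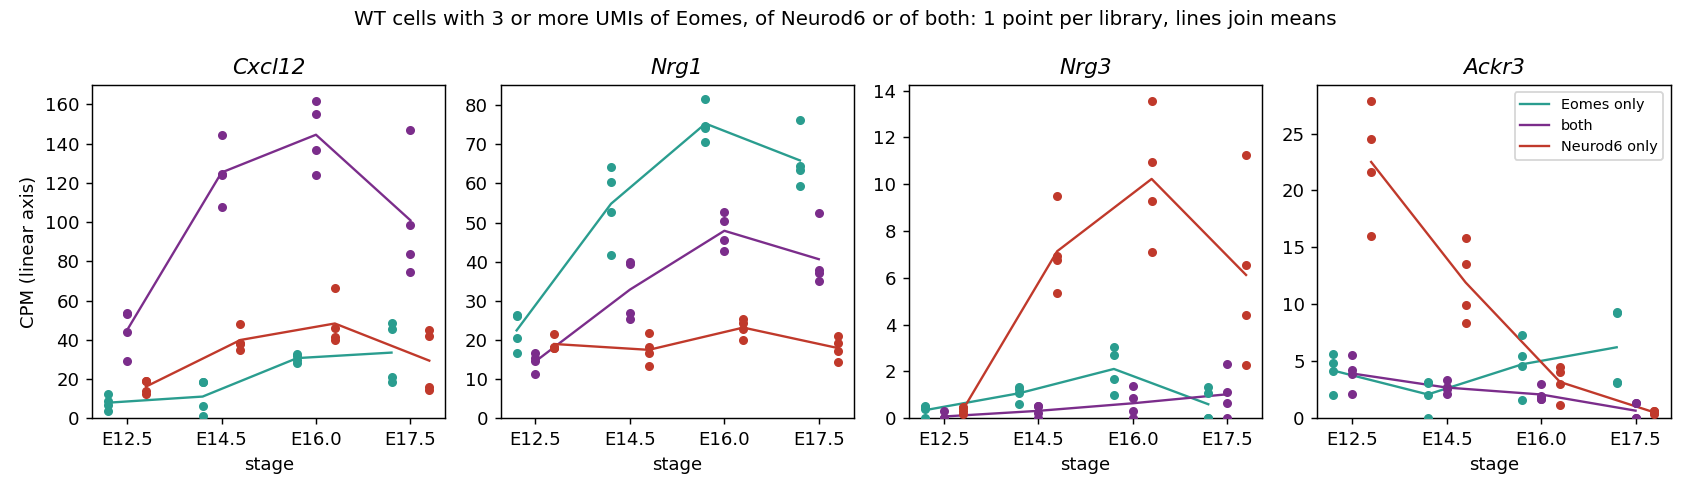
CPM (linear axis) of Cxcl12, Nrg1, Nrg3 and Ackr3 by stage in WT cells with 3 or more UMIs of Eomes only, of both Eomes and Neurod6, or of Neurod6 only; each point is a library and lines join the means of a stage. Over the 16 libraries Cxcl12 averages most in the cells with both markers (104 CPM), Nrg1 in those with Eomes only (54.6 CPM) and Nrg3 in those with Neurod6 only (5.96 CPM).

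In Gad2-detected cells Cxcl12 was at 0 of 390254 UMIs in WT at E12.5, which allows up to 7.69 CPM (3 counts over the group). Later WT means were 4.62 ± 4.84 CPM (n = 3), 11.1 ± 8.48 (n = 4) and 10.1 ± 11.6 (n = 4, SD), and 4 of these 11 libraries held no UMI of it. At E17.5 the WT libraries M2 and F2 averaged 20.1 CPM, beside 57.1 CPM in their Neurod6-detected cells, and the WT libraries M1 and F1 held none, beside 22.1 CPM. Het M2 and F2 averaged 6.05 CPM in Gad2-detected cells. The level depended on how the class was drawn: over the WT libraries it was 7.59 ± 8.59 CPM (SD, n = 13), but 31.3 ± 30.3 CPM (n = 15) with 1 UMI of Gad2 as the bound and 1.11 ± 2.83 CPM (n = 12) in cells of exactly 1 class. With 1 UMI as the bound, the change from E12.5 to E14.5 was also called (adjusted p = 0.0246), with 1 UMI of Cxcl12 in the WT class at E12.5. In 18 libraries of both genotypes it averaged 0.982 ± 2.59 CPM in Gad2-detected cells with a UMI of Lhx6 and 12.7 ± 16.5 CPM in those without (SD over libraries). Averaged over E14.5, E16.0 and E17.5, an average added after the few Gad2-detected cells of E12.5 had been seen, Gad2 minus Eomes was -3.47 (SE 0.27, adjusted p = 8.07e-16) and Gad2 minus Neurod6 was -2.81 (SE 0.30, adjusted p = 2.6e-11). In these 2 averages 39.5% and 39.2% of all genes were called.

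Cajal-Retzius cells and vessel cells also carried Cxcl12 at late stages. Cells with 3 or more UMIs of Reln and none of Gad2, which held the Cajal-Retzius genes Lhx5, Trp73, Ndnf and Calb2 from E14.5 on, averaged 1.89 CPM in WT at E12.5 and 66.6 ± 27.7 CPM (SD, n = 4) at E14.5. At E17.5 they stood at 891, 1240, 867 and 1010 CPM (1000 ± 170 CPM, SD, n = 4). These libraries did not overlap with those of E12.5 or E14.5, and the het libraries of E17.5 averaged 990 ± 336 CPM. The 5 Cajal-Retzius markers summed to 5054 CPM in these WT cells at E17.5, and the endothelial, pericyte and fibroblast lists to 4.02, 108 and 8.03 CPM. At E16.0, where 37 WT cells were found and the red blood cell genes summed to 25316 CPM, the pooled level was 406 CPM. Cells with 3 or more UMIs of Rgs5, a pericyte gene, rose from a pooled 45.2 CPM at E12.5 to 319 CPM at E17.5, and those of Cldn5 from 37.5 to 113 CPM. Radial glia, taken as cells with Hes5 and no Eomes, averaged at most 1.94 CPM in WT at any stage. These classes were not part of the fits, and their values are descriptions.

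As a share of all Cxcl12 UMIs in WT, Eomes-detected cells held 33.3% with 13.6% of all UMIs, and Neurod6-detected cells 69.2% with 42.6%; the 2 overlap. At E12.5 Col1a2-detected cells held between 55.3% and 70.5% of a WT library's Cxcl12 UMIs (mean 61.3%) and between 28.8% and 55.7% in het (mean 40.1%). Neurod6-detected cells held a mean of 92.9% at E14.5, 83.9% at E16.0 and 56.0% at E17.5 in WT.

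**Figure D3:**
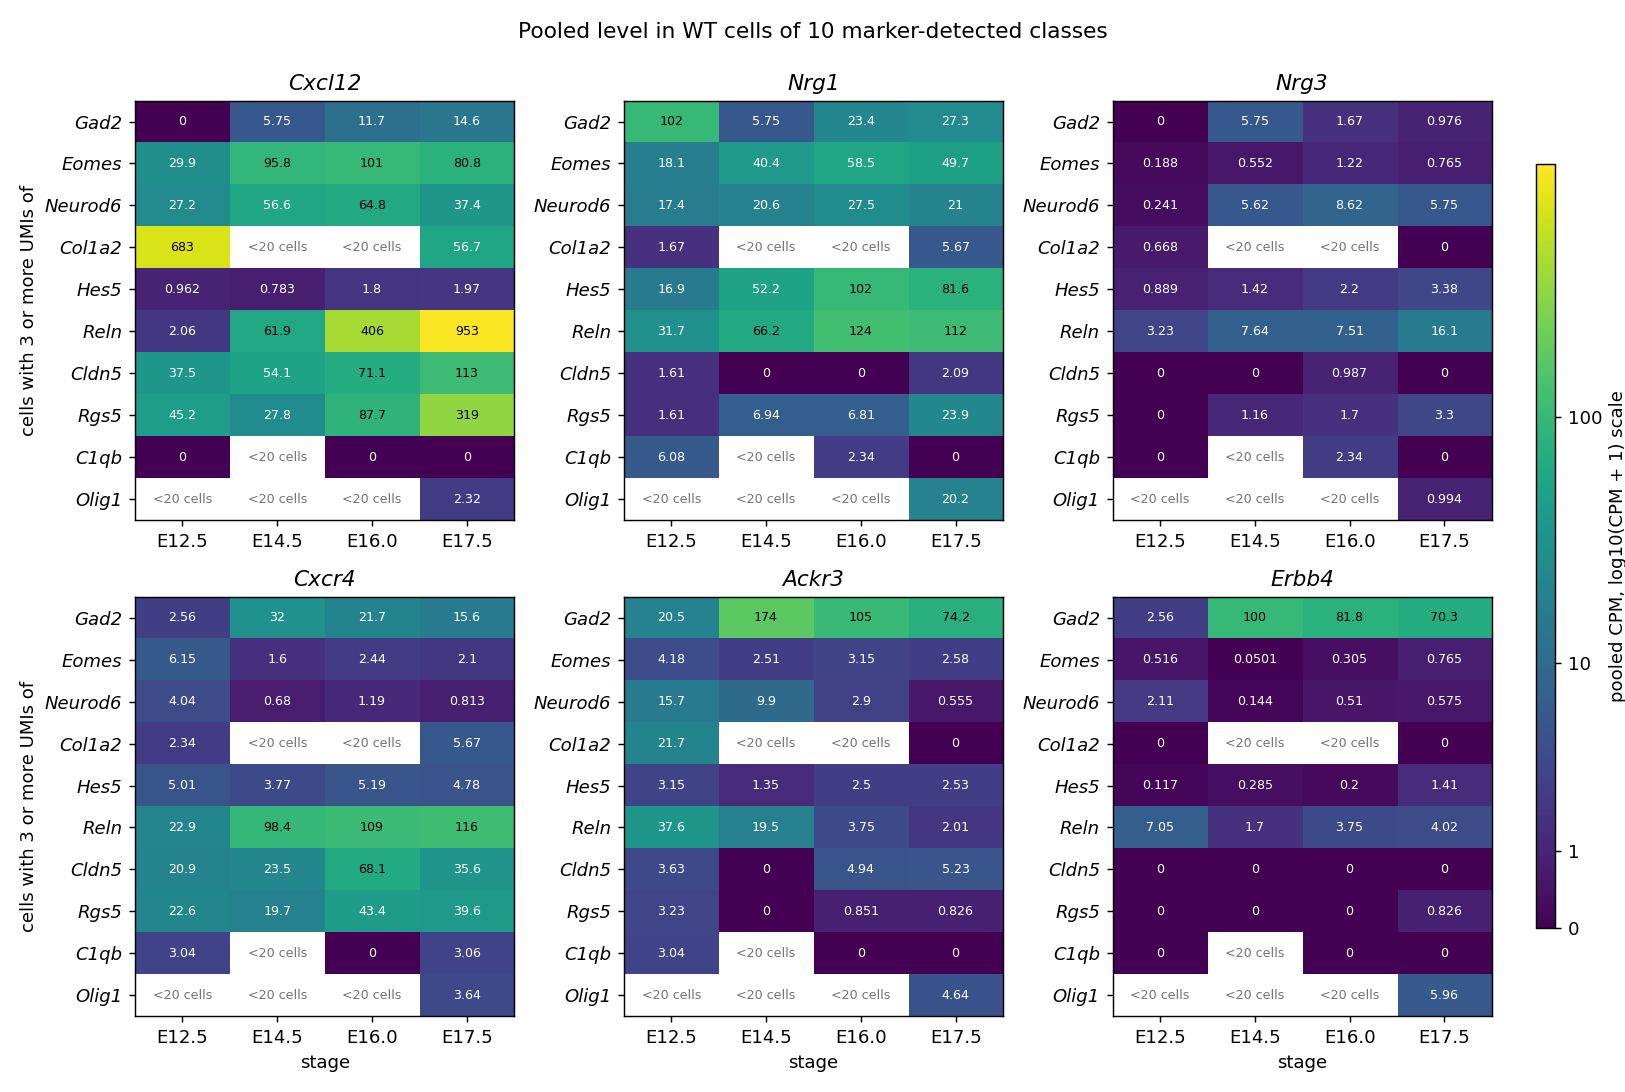
Pooled WT CPM of the 6 genes in cells detected for each of 10 marker genes at 4 stages, as colour on a log10 (CPM + 1) scale with the value in each cell; Hes5 cells are those without Eomes and Reln cells those without Gad2, and classes with fewer than 20 cells at a stage are marked so. Cxcl12 is highest in Col1a2-detected cells at E12.5 and in Reln-detected cells at E17.5 (953 CPM), and Erbb4 stays highest in Gad2-detected cells from E14.5 on.

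Among Gad2-detected, Eomes-detected and Neurod6-detected cells, the place of Gad2-detected cells for the receptors was opposite to their place for Cxcl12. From E14.5 on, Cxcr4, Ackr3 and Erbb4 were all higher in Gad2-detected cells than in Eomes-detected or Neurod6-detected cells, in WT averages over the 3 later stages. For Cxcr4, the signalling receptor of Cxcl12, the WT Gad2-detected cells held 19.3, 46.2 and 21.2 CPM (M1, M2, F2) at E14.5, 17.7, 28.2, 11.5 and 63.9 CPM (M1, M2, F1, F2) at E16.0, and 17.2, 21.6, 10.1 and 4.14 CPM at E17.5. Each of these 11 values was above the highest Eomes-detected WT library of the same stage. At E17.5 the values of F1 and F2 were 1 UMI each, where 1 UMI was enough to lie above it. Gad2 minus Eomes was 3.33 (SE 0.33, adjusted p = 2.36e-12) and Gad2 minus Neurod6 was 4.39 (SE 0.35, adjusted p = 1.96e-15). At E12.5 the 2 WT libraries held 0 and 5.56 CPM, the latter 1 UMI, and the change from E12.5 to E14.5, 3.11 (SE 1.00, adjusted p = 0.0405), was not called with DESeq2 (adjusted p = 0.194), without either of these libraries (adjusted p = 0.153 and 0.234), without WT M2 of E14.5 (0.172), in cells of exactly 1 class (0.0556) or without a filter on low counts (0.0527). In the excitatory lineage Cxcr4 moved the other way, from 6.06 ± 2.51 to 1.81 ± 1.19 CPM in Eomes-detected cells (-1.95, SE 0.48, adjusted p = 0.00232) and from 3.91 ± 1.73 to 0.787 ± 0.525 CPM in Neurod6-detected cells (-2.47, SE 0.47, adjusted p = 0.000141; SD, n = 4 each). Cells with Eomes held more of it than cells with Neurod6, by 0.95 (SE 0.17, adjusted p = 1.43e-06).

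Gad2-detected cells were not the cells with the most Cxcr4. Reln-detected cells without Gad2 averaged 23.0 ± 1.48 CPM in WT at E12.5 and 109 ± 23.7 CPM at E17.5 (SD, n = 4). At E14.5 their libraries held 43.2, 66.9, 297 and 56.1 CPM, so that F1 stood far above the other 3, and het F1 was also the highest of its group, at 191 CPM. Cldn5-detected and Rgs5-detected cells, of vessels, held pooled levels of 20.9 to 68.1 CPM and 19.7 to 43.4 CPM over the stages. Gad2-detected cells held 2.79% of all Cxcr4 UMIs in WT.

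Ackr3, the atypical receptor, was high in Gad2-detected cells from E14.5 on. The WT libraries held 18.4 and 22.3 CPM at E12.5 (M1, F1), then 181, 210 and 68.8 CPM at E14.5 (M1, M2, F2). They held 82.4, 141, 96.0 and 144 CPM at E16.0 and 97.7, 49.0, 233 and 45.5 CPM at E17.5 (M1, M2, F1, F2). All libraries of the later stages were above both of E12.5, with a wide spread at E17.5, where M1 and F1 of both genotypes lay between 97.7 and 233 CPM and M2 and F2 between 45.5 and 85.7 CPM. The change from E12.5 to E14.5 was 2.91 (SE 0.76, adjusted p = 0.0136), and it was not called without WT F1 or M1 of E12.5 (adjusted p = 0.16 and 0.0939) or without WT M2 of E14.5 (0.0506). Of all genes, 11.3% were called in this comparison. From E14.5 to E17.5, where 3.06% of genes were called, it was -0.86 (adjusted p = 0.283), but -1.37 (adjusted p = 0.0426) without WT F1 of E17.5. Over the later stages Gad2 minus Eomes was 5.18 (SE 0.22, adjusted p = 6.7e-27) and Gad2 minus Neurod6 was 5.19 (SE 0.21, adjusted p = 1.37e-27).

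Neurod6-detected cells lost Ackr3 with stage. The WT level was 15.5 ± 3.05 CPM at E12.5, 10.2 ± 2.81 at E14.5, 2.94 ± 1.28 at E16.0 and 0.558 ± 0.0268 at E17.5 (SD, n = 4 each). From E14.5 to E17.5 it fell by 4.24 on the log2 scale (SE 0.46, adjusted p = 2.92e-08), and no library of E17.5 reached the lowest of E14.5. The earlier step, from E12.5 to E14.5, was -0.65 (adjusted p = 0.141), and -0.95 (adjusted p = 0.0345) in cells of exactly 1 class. Eomes-detected cells held 4.16 ± 0.804, 2.52 ± 0.684, 3.17 ± 0.974 and 2.57 ± 1.23 CPM, and neither of their 2 changes was called (adjusted p = 0.0838 and 0.972). The first of these, -0.81, was called with 1 UMI of Eomes as the bound (-0.95, adjusted p = 0.0107) and without the 3 E17.5 libraries that stood apart (-0.80, adjusted p = 0.0389). Eomes minus Neurod6 thus stood below 0 at E12.5 (-1.92, SE 0.19, adjusted p = 1.38e-12) and E14.5 (-2.08, SE 0.22, adjusted p = 5.84e-12). It was near 0 at E16.0 (-0.035, adjusted p = 0.926) and above 0 at E17.5 (2.14, SE 0.51, adjusted p = 0.000314). The average over stages, -0.47 (adjusted p = 0.0103), runs over both signs and was lost in cells of exactly 1 class (-0.29, adjusted p = 0.264), with 1 UMI as the bound (-0.26, adjusted p = 0.0567), in het libraries (-0.41, adjusted p = 0.0618) and without WT M1 of E17.5 (-0.30, adjusted p = 0.139), WT M1 of E16.0 (0.0751) or WT F2 of E14.5 (0.0516). The change of this difference between stages was not tested. At E12.5 Ackr3 was also present in Col1a2-detected cells, at 21 ± 6.73 CPM (SD, n = 4), and in Reln-detected cells, at 37.4 ± 3.73 CPM, whereas the latter held 1.07 CPM at E17.5.

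Erbb4, the neuregulin receptor, separated Gad2-detected cells from Eomes-detected and Neurod6-detected cells from E14.5 on. In WT they held 6.14 and 0 CPM at E12.5, the former 1 UMI, and 118, 90.3 and 79.4 CPM at E14.5. They held 76.5, 141, 61.4 and 79.9 CPM at E16.0 and 138, 64.7, 91.0 and 24.8 CPM at E17.5. No WT library of Eomes-detected or Neurod6-detected cells exceeded 2.76 CPM at any stage, so these did not overlap with the later Gad2-detected libraries. Over the later stages Gad2 minus Eomes was 8.01 (SE 0.33, adjusted p = 8.33e-26) and Gad2 minus Neurod6 was 7.41 (SE 0.28, adjusted p = 1.99e-27). The change from E12.5 to E14.5 in Gad2-detected cells was 4.8 (SE 1.06, adjusted p = 0.00496), a call lost without WT F1 of E12.5 (adjusted p = 0.133). The Gad2-detected cells of E12.5 held no Lhx6 and more of the radial glia markers than those of E14.5. The part of this in the changes of Cxcr4, Ackr3 and Erbb4 over this step was not tested. In Col1a2-detected cells at E12.5 Erbb4 had 0 of 2995098 UMIs in WT, which allows up to 1.00 CPM, and Gad2 minus Col1a2, which could be fitted only at that stage, was not called (adjusted p = 0.253). At E17.5 the Gad2-detected cells of M1 and F1 held 91.0 to 257 CPM and those of M2 and F2 24.8 to 64.7 CPM, over both genotypes.

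Neurod6-detected cells held Erbb4 at 2.18 ± 0.529 CPM at E12.5 and at 0.13 ± 0.21 CPM at E14.5 (SD, n = 4; -3.88, SE 0.55, adjusted p = 2.45e-06). At E17.5 they held 0.60 ± 0.31 CPM (1.90 above E14.5, adjusted p = 0.0179), and this call was lost without WT M1 or M2 of E14.5 (adjusted p = 0.0697 and 0.0665). Over all cells of a library, Erbb4 rose from 0.513 ± 0.0663 CPM at E12.5 to 2.74 ± 0.606 at E14.5 (2.31, SE 0.40, adjusted p = 1.77e-05) and to 7.32 ± 2.5 at E17.5 (1.31, SE 0.36, adjusted p = 0.00504). In all cells 53.5% and 41.4% of genes were called in these 2 comparisons.

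Ackr3, Erbb4 and Cxcr4 averaged more in Gad2-detected cells with Lhx6 than in those without. For Cxcr4, with few UMIs, the order of the 2 sets varied between libraries. In 18 libraries of both genotypes with enough cells of both kinds, cells with a UMI of Lhx6 (482 cells) were set against those without (491 cells). Ackr3 averaged 202 ± 72.8 CPM with Lhx6 and 77.8 ± 65.5 CPM without, higher with Lhx6 in 18 of 18 libraries. Erbb4 averaged 148 ± 58.3 and 54.2 ± 42.0 CPM, higher in 17 of 18. Cxcr4 averaged 40.8 ± 28.6 and 16.1 ± 13.8 CPM, higher in 11 of 18. It had only 0 to 16 UMIs per library with Lhx6 and 0 to 8 without. The part of these small counts in its varied order was not tested. The ligand Nrg1 stood the other way, at 2.76 ± 6.54 CPM with Lhx6 and 26.1 ± 16.2 CPM without (SD over libraries), higher with Lhx6 in 1 of 18. No test was made of these differences. At E17.5 cells without Lhx6 were 25.4% to 40.5% of the Gad2-detected cells in M1 and F1 of both genotypes and 40.7% to 81.0% in M2 and F2; the part of this in the split of Ackr3, Erbb4 and Nrg1 between these sets was not tested. Of all 1177 Gad2-detected cells, 439 (37.3%) held a UMI of Ackr3, 330 (28.0%) of Erbb4 and 126 (10.7%) of Cxcr4. Erbb4 was detected in 40.1% of the cells with Ackr3 and in 20.9% of those without it, and Ackr3 and Cxcr4 were found together in 67 cells. Deeper cells show more genes, and the part of depth in this co-detection was not tested.

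**Figure D4:**
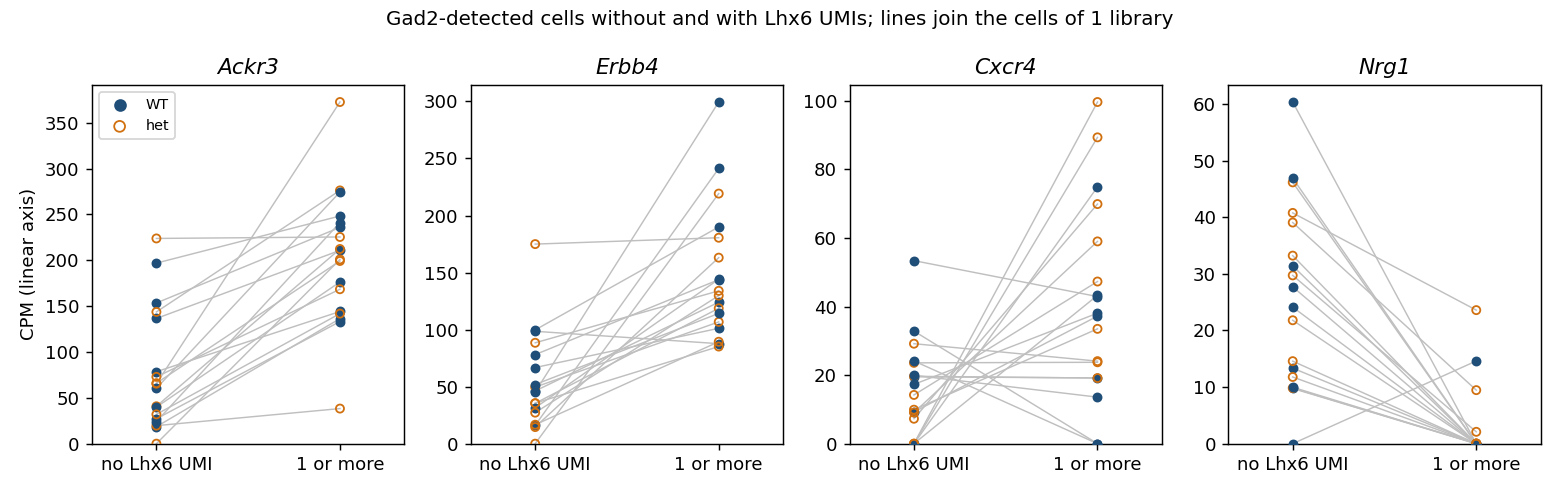
CPM of Ackr3, Erbb4, Cxcr4 and Nrg1 in Gad2-detected cells without and with a UMI of Lhx6; each line joins the 2 values of 1 library, WT filled and het open, over 18 libraries. Ackr3 is higher with Lhx6 in all 18 libraries, Erbb4 in 17, Cxcr4 in 11 and Nrg1 in 1.

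To compare shares of cells at equal depth, cells were thinned to 2000 UMIs. In WT Gad2-detected cells (581 cells, of which 7 were too shallow) 19.9% kept a UMI of Ackr3 (95% exact interval 16.7% to 23.4%; 37.0% unthinned), 15.7% one of Erbb4 (12.8% to 18.9%; 28.6% unthinned) and 5.57% one of Cxcr4 (3.84% to 7.78%; 9.81% unthinned). The thinned shares were 0.467% for Ackr3, 0.057% for Erbb4 and 0.479% for Cxcr4 in Eomes-detected cells, and 0.974%, 0.118% and 0.239% in Neurod6-detected cells. These shares hold free RNA of other cells together with any RNA of the cells' own, so free RNA alone gave no more than them there. For the ligand Cxcl12 they were 71.7% of the 205 Col1a2-detected cells of E12.5 (65.0% to 77.8%) and, over all stages, 12.8% of Eomes-detected, 8.04% of Neurod6-detected and 1.05% of Gad2-detected cells (0.385% to 2.26%). The median over libraries of the median depth was 4164 UMIs in Gad2-detected and 6678.5 UMIs in Eomes-detected cells before thinning. Intervals and limits cover counting error only.

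Gad2-detected cells, with 0.618% of all WT UMIs, held 18.4% of the Erbb4 UMIs and 8.64% of the Ackr3 UMIs. When 1 UMI of Gad2 was enough for the class (2376 cells, 2.48% of UMIs), these shares were 59.1% and 26.2%, so most Erbb4 molecules lay in cells with at least 1 UMI of Gad2, many of them below the bound of 3.

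Nrg1, a neuregulin with many isoforms that the counts do not separate, rose from E12.5 to E14.5 in Eomes-detected cells and fell over the same step in Gad2-detected cells. WT Eomes-detected cells held 19.98, 14.9, 16.6 and 20.8 CPM at E12.5 (M1, M2, F1, F2) and 44.8, 46.5, 31.6 and 33.7 CPM at E14.5. All values of E14.5 were above all of E12.5, and the change was 1.05 (SE 0.13, adjusted p = 2.72e-07). The means at E16.0 and E17.5 were 58.6 ± 3.65 and 49.5 ± 7.37 CPM (SD, n = 4), and the change from E14.5 to E17.5 was not called (0.25, adjusted p = 0.155). Neurod6-detected cells held 17.3 ± 1.86, 20.4 ± 4.25, 27.9 ± 2.11 and 21.1 ± 3.03 CPM over the stages, and their change from E12.5 to E14.5 was 0.19 (adjusted p = 0.262), but 0.47 (adjusted p = 0.0044) with 1 UMI of Neurod6 as the bound. Eomes minus Neurod6 was near 0 at E12.5 (0.03, adjusted p = 0.858), and 0.86, 0.96 and 1.09 (SE 0.08, 0.07 and 0.10) at the later stages, these with adjusted p at most 2.37e-13. Radial glia (Hes5 without Eomes) averaged 16.9, 49.9, 103 and 80.4 CPM in WT. Cells with Eomes alone held more than those with both markers in 15 of 16 WT libraries (54.6 ± 21.5 and 34 ± 13.9 CPM). Over both genotypes, Reln-detected cells without Gad2 averaged more than radial glia at each stage. They held 28.8, 67.5, 101 and 116 CPM, beside 15.1, 52.6, 96.3 and 88.2 CPM in radial glia.

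In Gad2-detected cells the 2 WT libraries of E12.5 held Nrg1 at 141 and 83.4 CPM (23 and 15 UMIs), and het M2 at 38.1 CPM. At E14.5 the WT libraries held 3.86, 4.20 and 15.9 CPM, below both of E12.5 (-4.11, SE 0.62, adjusted p = 0.000157). Later means were 23.6 ± 9.84 and 20.5 ± 15 CPM (SD, n = 4); the change from E14.5 to E17.5 was 2.00 (adjusted p = 0.0713), with adjusted p of 0.0226 without the 3 E17.5 libraries that stood apart and of 0.034 to 0.0484 without WT F2 of E14.5 or without WT M1, WT F1 or het F1 of E17.5. It was also called with 1 UMI of Gad2 as the bound (1.11, adjusted p = 0.0491) and without a filter on low counts (2.08, adjusted p = 0.0253). At E12.5 Gad2 minus Eomes was 2.15 (SE 0.34, adjusted p = 4.8e-06), beside 7.45% of genes called. At E14.5 it was -3.07 (SE 0.42, adjusted p = 2.25e-08), at E16.0 -1.61 (adjusted p = 0.00079) and at E17.5 -0.99 (adjusted p = 0.0105). Gad2 minus Neurod6 stood at 2.19 (SE 0.34, adjusted p = 3.22e-06) for E12.5, beside 9.8% of genes called, and at -2.21 (SE 0.47, adjusted p = 0.000211) for E14.5. It was not called at E16.0 (-0.65) or E17.5 (0.10; adjusted p = 0.303 and 0.848). The Gad2-detected cells of E12.5 are those without Lhx6 and with the radial glia markers given above; the part of this in the Nrg1 level was not tested. In Col1a2-detected cells Nrg1 was at 1.81 ± 1.59 CPM (SD, n = 4), and Eomes minus Col1a2 was 3.54 (SE 0.46, adjusted p = 2.66e-09).

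Nrg3 rose from E12.5 to E14.5 in Neurod6-detected cells, which held most of its UMIs from then on. In WT it stood at 0.304, 0.276, 0.109 and 0.293 CPM at E12.5 (8 UMIs in all), and at 5.67, 5.54, 7.80 and 4.49 CPM at E14.5. The groups did not overlap, and the change was 4.51 (SE 0.65, adjusted p = 2.81e-06). At E16.0 the values were 8.97, 11, 7.89 and 5.59 CPM, and at E17.5 10.0, 1.89, 6.15 and 3.76 CPM. The change from E14.5 to E17.5 was not called (-0.16, adjusted p = 0.769). At E17.5 the 2 sets again did not overlap: M1 and F1 of both genotypes held 6.15 to 15.8 CPM and M2 and F2 1.89 to 3.8 CPM, the reverse of their order for Cxcl12. Eomes minus Neurod6 was -2.39 (SE 0.31, adjusted p = 8.83e-10), and cells with both markers held less than cells with Neurod6 alone in 16 of 16 WT libraries (0.513 and 5.96 CPM). Gad2-detected WT cells held 9 UMIs of Nrg3 in all. At E14.5, with 7 of these in WT M1 and M2 and 0 in F2, Gad2 minus Eomes was 3.22 (SE 0.84, adjusted p = 0.00182) and Gad2 minus Neurod6 was -0.19 (adjusted p = 0.866), and over the 3 later stages together Gad2 minus Neurod6 was -1.78 (SE 0.55, adjusted p = 0.00769). Neurod6-detected cells held a mean of 5.18% of a WT library's Nrg3 UMIs at E12.5, 80.0% at E14.5 and 75.1% at E17.5. Reln-detected cells averaged 17.1 ± 5.18 CPM at E17.5.

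All 6 genes passed the filter on low counts in the class fit. Gad2 minus Eomes called 5 of the 6, all but Nrg3, beside 35.9% of all genes; Gad2 minus Neurod6 called 4 of 6, beside 39.6%; and Gad2 minus Col1a2 called 2 of 6 (Cxcl12 and Nrg1), beside 21.0%. Eomes minus Neurod6 called all 6, beside 71.9%; Eomes minus Col1a2 called 4, beside 55.6%; and Neurod6 minus Col1a2 called 3, beside 58.1%. Calls were also gained: Nrg3 in Gad2 minus Eomes with DESeq2 (1.98, adjusted p = 0.00530), and in Gad2 minus Neurod6 in het libraries (adjusted p = 0.00137), where Gad2-detected cells held UMIs of it at E14.5 and E16.0 only. Nrg1 in Gad2 minus Neurod6 was called over the later stages (-0.92, adjusted p = 0.0016), in het libraries (-0.69, adjusted p = 0.00545) and with at least 30 cells (-0.88, adjusted p = 0.0321). In Neurod6 minus Col1a2, Cxcr4 (1.19, adjusted p = 0.037) and Ackr3 (-0.76, adjusted p = 0.0291) were called with 1 UMI as the bound, and Cxcr4 also without WT F1 of E12.5 (2.08, adjusted p = 0.0226). In het libraries that call was also made, against Col1a2-detected cells that held no UMI of Cxcr4, so no fold is given, and Erbb4 in Neurod6 minus Col1a2 lost its call (adjusted p = 0.220). Averages with Gad2 that include E12.5 rest on its 2 libraries: those of Cxcr4 were not called without WT F1 of E12.5, and those of Erbb4 not without WT M1 (adjusted p = 1 in each). For Erbb4, Eomes minus Neurod6 (-0.96, adjusted p = 0.0431) rested on E12.5 (-2.04, adjusted p = 0.000593), was not called with DESeq2 (-0.83, adjusted p = 0.0697) or without TMM (-0.87, adjusted p = 0.0764), was -0.60 (adjusted p = 0.323) over the later stages, and lost its call without any of 15 of the 16 libraries in turn (adjusted p up to 0.19). For Cxcr4, Eomes minus Col1a2 (1.44, adjusted p = 0.0148) was not called with DESeq2 (0.145) or without WT F2 or M1 of E12.5 (0.187 and 0.0568). The centre of a contrast was taken as its median over 2877 genes detected throughout. With the scaling used (TMM) it was -0.31 for Gad2 minus Eomes, -0.36 for Gad2 minus Neurod6 and 0.04 for Gad2 minus Col1a2. It was -0.03 for Eomes minus Neurod6, and 0.44 and 0.43 for Eomes and Neurod6 minus Col1a2. In the same order, the centres without TMM were -0.04, 0.01, 0.31, 0.06, 0.32 and 0.28. Differences are to be read against the centre under their own scaling. Over all genes, 972 were called higher and 4593 lower in Gad2 minus Eomes, but 1664 and 2143 without TMM and 3764 and 1986 with DESeq2. For Gad2 minus Neurod6 the numbers were 624 and 5512, 1388 and 1561, and 3014 and 1639. For Gad2 minus Col1a2 they were 1136 and 2119, and 1626 and 1566 without TMM. For Eomes minus Col1a2 they were 4541 and 4091, and 2705 and 4993 with DESeq2; for Neurod6 minus Col1a2 4835 and 4179, and 2868 and 5203 with DESeq2. Under these 2 scalings no called difference of a member reversed its sign in these contrasts; 2 uncalled ones did, Nrg1 in Gad2 minus Neurod6 (-0.14, and 0.22 without TMM) and Nrg3 in Gad2 minus Col1a2 (0.29 with DESeq2).

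Other genes of the same systems were followed in 3 lists: the chemokine system (25 tested genes), the neuregulin and ErbB system (18) and other signals known for tangential migration of interneurons (27). In Gad2 minus Eomes, 1 chemokine gene was higher and 3 lower (list median -0.69), 2 and 3 genes of the ErbB list (-0.31) and 6 and 9 of the migration list (-0.88), beside a median of -0.45 and 35.9% called over all genes tested. Without TMM these were 1 and 1, 4 and 2, and 7 and 5, and with DESeq2 10 and 1, 6 and 1, and 10 and 5, so the balance of higher and lower in this contrast depended on the scaling. As shares, 16% of the chemokine list, 27.8% of the ErbB list and 55.6% of the migration list were called with TMM. Higher, among others, were Cdk5r1, an activator of the kinase Cdk5 in migrating neurons (1.62, SE 0.10), the slit receptor Robo1 (1.07, SE 0.25), the BDNF receptor Ntrk2 (1.07, SE 0.30) and the adaptor Grb2 (0.39, SE 0.11). Lower were the semaphorin receptor Nrp1 (-2.82, SE 0.24), the netrin receptor Dcc (-1.53, SE 0.18), the G protein regulator Rgs16 (-1.02, SE 0.18) and the gamma-secretase subunit Ncstn (-0.94, SE 0.19). All of these had an adjusted p of at most 0.00388 and were also called without TMM and with DESeq2. The G protein subunits Gnai2 (-0.38, adjusted p = 0.000716) and Gnai3 (-0.30, adjusted p = 0.00562) were called with TMM alone, and lie about at the centre of that contrast.

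Gad2 minus Neurod6 gave 1 higher and 4 lower chemokine genes (median -0.77), 1 and 5 of the ErbB list (-0.53) and 1 and 15 of the migration list (-1.24), beside -0.54 and 39.6% called over all genes. Of these lists 20%, 33.3% and 59.3% were called. Without TMM the counts were 2 and 0, 1 and 1, and 2 and 13, and with DESeq2 6 and 0, 2 and 1, and 4 and 11. Ntrk2 was higher by 1.11 (SE 0.30, adjusted p = 0.00276). Nrp1 was lower (-4.22, SE 0.19), as were the NT-3 receptor Ntrk3 (-2.10, SE 0.19), Dcc (-1.96, SE 0.17), and the postsynaptic scaffold Dlg4 (-1.44, SE 0.14), with adjusted p at most 4.15e-12, and these kept their calls under both other scalings. The chemokine Ccl25 (-0.67, adjusted p = 0.0119) and the arrestin Arrb2 (-0.59, adjusted p = 0.0089) were called with TMM alone (adjusted p from 0.334 to 0.522 under the other 2). Gad2 minus Col1a2 gave 1 and 3, 0 and 6, and 4 and 7 (medians -0.61, -1.20 and -0.89; all genes -0.37), which is 16%, 33.3% and 40.7% of the lists beside 21.0% of all genes.

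Eomes minus Neurod6 gave 3 higher and 10 lower chemokine genes (median -0.34), 6 and 11 of the ErbB list (-0.39) and 2 and 21 of the migration list (-0.86), beside -0.10 over all genes. These were 52.0%, 94.4% and 85.2% of the lists, beside 71.9% of all genes. Higher in Eomes-detected cells were Rgs16 (0.71, SE 0.05), Gnai2 (0.60, SE 0.04) and the ephrin receptor Epha4 (0.46, SE 0.04). Lower were the ephrin Efna3 (-2.36, SE 0.07), Robo1 (-2.31, SE 0.06), Cdk5r1 (-1.83, SE 0.05), Nrp1 (-1.39, SE 0.05) and Dlg4 (-1.12, SE 0.04), all with adjusted p at most 1.77e-14. Against Col1a2-detected cells at E12.5, Eomes-detected cells gave 5 and 11, 3 and 11, and 10 and 10 (medians -0.82, -1.14 and -0.04; all genes 0.13), and Neurod6-detected cells 5 and 11, 3 and 10, and 11 and 10 (-0.78, -1.15 and 0.10; all genes 0.16). Called were 64.0%, 77.8% and 74.1% of the lists for the former, beside 55.6% of all genes, and 64.0%, 72.2% and 77.8% for the latter, beside 58.1%. There the microtubule protein Dcx (6.03 and 6.89) and Dcc (6.32 and 6.88) were higher in the neuronal lineage, and the semaphorin receptor Nrp2 (-3.51 and -2.20) and Ntrk2 (-2.18 and -2.65) were higher in Col1a2-detected cells, all with adjusted p at most 5.01e-13.

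By likeness of pattern over 13 combinations of class and stage (Pearson r of log2(CPM + 1) over 8939 genes, a description, since cells of several classes share a library), Erbb4 was nearest to Tox2 (0.984), Neto1 (0.977) and Cdk14 (0.976). Cxcr4 was nearest to Tox2 (0.948), Npas3 (0.938) and Ripor2 (0.929), and Ackr3 to Ripor2 (0.933), Car2 (0.923) and Rara (0.916). Cxcl12 was nearest to Ubxn8 (0.958), Rhog (0.950) and Ogdh (0.949), Nrg1 to Hspa4l (0.944), and Nrg3 to Fndc4 (0.941) and Cacna1e (0.939). Among the members, Erbb4 stood at 0.911 with Cxcr4 and at 0.875 with Ackr3, and Cxcl12 at -0.463 with Cxcr4 and -0.485 with Ackr3.

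The genotype comparison asked whether loss of 1 Chd8 copy moved these genes in the cells that make or sense the signals. None of them was called in any of the class fits, averaged over stages. The fit over all cells tested all 6 genes and called 50 of 15876 genes (0.315%); that of Gad2-detected cells tested 5 and called 0 of 6120 (0.0%), with 179 genes at an unadjusted p under 0.05 and 0 with DESeq2. Eomes-detected cells tested 4 of the genes and called 23 of 12109 (0.19%), Neurod6-detected cells tested all 6 and called 40 of 13751 (0.291%). Col1a2-detected cells, tested at E12.5 for Cxcl12 and Ackr3, called 0 of 7790 (0.0%), with 704 genes at an unadjusted p under 0.05 and 2 with DESeq2. With the pair as a block the counts were 253, 0, 87, 152 and 17.

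Over all cells, het minus WT averaged over stages was -0.16 (SE 0.11) for Cxcl12, -0.03 (SE 0.20) for Cxcr4, -0.235 (SE 0.14) for Ackr3, -0.225 (SE 0.20) for Erbb4, -0.02 (SE 0.07) for Nrg1 and 0.01 (SE 0.20) for Nrg3, with adjusted p from 0.859 to 1. In Gad2-detected cells the average covers E14.5, E16.0 and E17.5 only, since 1 het library of E12.5 had enough cells. There Cxcr4 stood at 0.28 (SE 0.30), Ackr3 at 0.13 (SE 0.26) and Erbb4 at -0.08 (SE 0.25). These standard errors leave room for changes of the order of the estimates' own size and more. Het means for Ackr3 in Gad2-detected cells were 152 ± 99.2, 119 ± 30.5 and 108 ± 40.4 CPM at the later stages, and for Erbb4 83.0 ± 24.5, 45.1 ± 16.7 and 133 ± 103 CPM (SD, n = 4), overlapping with WT at each stage for Ackr3. For Erbb4 at E16.0 all 4 het libraries (20.2 to 55.6 CPM) lay below all 4 WT libraries (61.4 to 141 CPM), with a difference of -0.78 (SE 0.50, adjusted p = 1), and at E17.5 the order was not kept (0.72, SE 0.42, adjusted p = 0.934). For Cxcr4 in Gad2-detected cells at E17.5 all 4 het libraries lay above all 4 WT libraries. They held 57.2, 23.2, 25.6 and 38.1 CPM (M1, M2, F1, F2; 4 to 9 UMIs each) against 17.2, 21.6, 10.1 and 4.14 CPM in WT (1 to 11 UMIs). The difference was 1.06 (SE 0.53, adjusted p = 0.934), and the order held in M1 with F1 (WT mean 13.7, het mean 41.4 CPM) and in M2 with F2 (12.9 and 30.7 CPM). The share of Gad2-detected cells without Lhx6 was also lower in het in 4 of 4 pairs: 28.0%, 69.0%, 25.4% and 40.7% in het (M1, M2, F1, F2) and 40.5%, 75.3%, 35.7% and 81.0% in WT. Its part in the Cxcr4 difference was not tested. Over 18 libraries of the later stages Cxcr4 averaged less without Lhx6. Within E17.5 it was higher without Lhx6 in WT M1 (19.9 beside 13.6 CPM), WT F1 (32.8 beside 0) and het F1 (29.2 beside 24.1). These values were 2 UMIs beside 1, 1 UMI beside 0 and 2 UMIs beside 4, too few to set an order. Cxcr4 was lower without Lhx6 in WT M2, het M2 and het F2. No gene of the 3 lists was called by genotype averaged over stages.

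**Figure D5:**
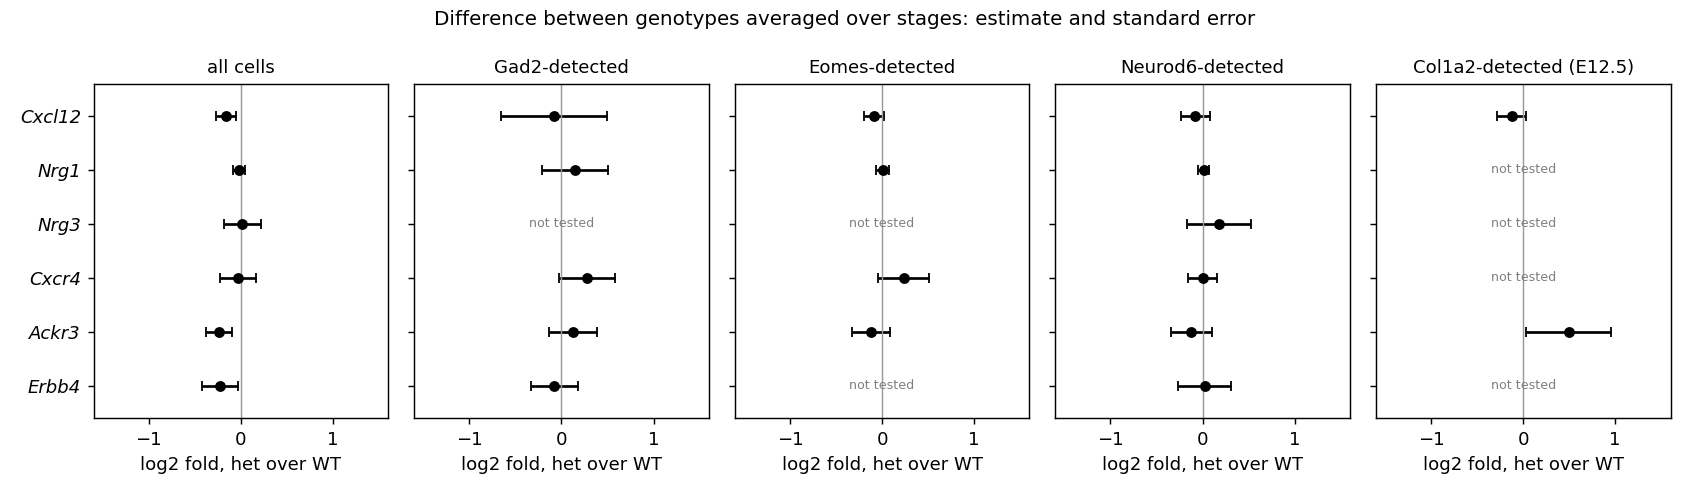
Log2 fold of het over WT (points, bars ± SE), averaged over stages, for the 6 genes in the fits of all cells and of each class in which a gene passed the filter; the vertical line is 0, and genes below the filter are marked as not tested. The average covers E14.5, E16.0 and E17.5 for Gad2-detected cells and E12.5 alone for Col1a2-detected cells. No point has an adjusted p of 0.05 or less.

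There were 66 combinations of a member, class and stage with 4 pairs. With no difference and no ties, 1 of 8 would have all pairs on 1 side. Some held tied pairs, such as Erbb4 in Col1a2-detected cells, and could not, so that rate does not hold for all 66. Eomes-detected and Neurod6-detected cells overlap, so the 66 are also not independent. How many of all genes had all pairs on 1 side was not counted. Of the 66, 10 had all pairs on 1 side, and none was called. They were Cxcr4 in Eomes-detected cells at E12.5 and in Gad2-detected cells at E17.5 (het higher), Erbb4 in Gad2-detected cells at E16.0 (lower), and Cxcl12 in Eomes-detected and Neurod6-detected cells at E17.5 (lower). The other 5 were in Neurod6-detected cells: Ackr3 at E14.5 (lower), Nrg3 at E14.5 (lower) and E17.5 (higher), and Nrg1 at E12.5 (lower) and E14.5 (higher). Of these, Nrg1 at E12.5 had the lowest adjusted p, at 17.3 ± 1.86 CPM in WT and 12.6 ± 1.58 CPM in het (SD, n = 4), with no overlap of the libraries. The difference was -0.37 (SE 0.14, adjusted p = 0.267), and -0.35 (adjusted p = 0.075) with the pair as a block. At E14.5 the difference was 0.21 (adjusted p = 1).

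Cxcl12 at E12.5 was lower in het over all cells, a difference called only with the pair as a block. Over all cells WT held 18.3, 18.6, 11.7 and 14.3 CPM (M1, M2, F1, F2) and het 9.15, 13.7, 8.55 and 9.23 CPM, lower in 4 of 4 pairs, while the ranges overlapped. Of 24 combinations of a member and stage over all cells, 5 had all pairs on 1 side, among them Ackr3 and Erbb4 at E12.5, both lower (adjusted p = 0.63 and 0.784, and 0.283 and 0.456 with the pair as a block). The share of all genes with all pairs on 1 side was not counted here either. For Cxcl12 the difference was -0.55 (SE 0.23, adjusted p = 0.23), beside 0.265% of genes called. With the pair as a block it was -0.55 (adjusted p = 0.019), in a fit that called 13.3% of all genes. Deviations from the group means correlated at 0.158, 0.381, 0.276 and 0.623 in the E12.5 pairs (M1, M2, F1, F2). The median over all pairs of the series was 0.728. For M1 and F1 at E12.5, the other embryo of the pair was not the best match. Without the Col1a2-detected cells, in a fit added to those planned, the Cxcl12 difference was 0.08 (adjusted p = 0.93). Within Col1a2-detected cells it was -0.12 (SE 0.16, adjusted p = 0.875). These cells held a larger mean share of the Cxcl12 UMIs in WT than in het, as given above, so taking them out lowers WT more. The part of their number in the Cxcl12 difference was not tested. The share of Col1a2-detected cells in a library at E12.5 was 1.03 ± 0.33% (WT) and 0.495 ± 0.19% (het; SD, n = 4), lower in het in 4 of 4 pairs (exact two-sided permutation test over samples, p = 0.0571, the smallest possible being 0.0286). This test moved the labels freely over the libraries and did not use the pairs. Moved only within the 4 pairs, the labels could not give a p so small. Cells thinned to 2000 UMIs gave 1.11 ± 0.29% and 0.646 ± 0.26% with at least 1 UMI of Col1a2 (p = 0.0857, exact permutation) and 0.61 ± 0.17% and 0.264 ± 0.13% with at least 2 (p = 0.0286, exact permutation, the smallest it can give). These 2 tests also left the pairs unused. Cells too shallow for thinning were left out, 449 in het F1 and 26 in het M1, and none in WT.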

How the data were processed

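Single cells of the dorsal telencephalon were captured one embryo at a time with 10x 3′ v2 chemistry , per the labels' protocols. The authors deposited raw UMI counts per gene and cell barcode for each library; genome mm10, STAR 2.7.9a, STARsolo and Cell Ranger are named in the submitters' processing notes.

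From these counts, barcodes had to hold 1000 or more UMIs and 500 or more genes, with no more than 10% of UMIs mitochondrial, and 5471 likely doublets of 143697 such cells were removed by a score against simulated doublets (0.8% expected per 1000 cells). A class is all cells with 3 or more UMIs of its marker. Counts were summed per library and class, and CPM is that count scaled to 1000000 UMIs of the sum. Sums of at least 10 cells were tested with edgeR 4.0.16 (quasi-likelihood test, filterByExpr, TMM, Benjamini-Hochberg threshold 0.05; R 4.3.3, limma 3.58.1), in code tested on simulated data. Genotype and stage used all 32 libraries in 8 groups; classes were compared in the 16 WT libraries with the library as a term. DESeq2 1.42.0, the pair as a block, other bounds for the marker, other filters, other scalings and leaving out each library were alternatives. Python 3.11.15 with numpy 2.4.6, scipy 1.17.1, pandas 2.3.3 and matplotlib 3.10.9 was used for levels, exact tests and figures.

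The pairs come from the labels, which match a WT and a het embryo by litter and sex. Deviations from the group means correlated above 0.1 in 16 of 16 pairs over all cells (median r 0.728), in 9 of 11 for Gad2-detected, 14 of 16 for Eomes-detected, 15 of 16 for Neurod6-detected and 2 of 4 for Col1a2-detected cells. Each library is 1 embryo, so p-values of genotype and stage measure the spread between embryos and their libraries. The main genotype fits did not use the pairs. In the class fits the library is a term, so their p-values measure how class differences vary between libraries. The 6 genes, the lists and the classes were chosen with earlier results of these data known. Named beside the 6 genes are the markers that check a class and, from each list, at most 4 genes per contrast and direction that passed the threshold at a mean log2 CPM of at least 4. Gene IDs were looked up in GENCODE vM21 (32158 of 32285, 99.6%).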

Additional observations from a re-analysis of the deposited data

Results flagged for a closer look

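In 76 groups of 4 libraries with at least 40 UMIs of a member, a library was looked for whose gap to the nearest other was above Dixon's 95% bound as a share of the group's range, which chance gives in about 1 of 20 groups; 2 were found. Ackr3 in Eomes-detected cells of WT at E14.5 was at 1.5 CPM in F2 and at 2.75 to 2.96 CPM in the other 3 libraries. Nrg1 in Eomes-detected cells of WT at E17.5 was at 60.5 CPM in M1, a library that stood apart, and at 45.3 to 46.5 CPM in the other 3.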

How the results depend on the processing

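For the 6 genes, under alternatives other than leaving out a library, 673 values kept their direction and side of the threshold, 43 that were called in neither fit changed sign, 18 gained a call, 12 lost one and 3 reversed. With 1 library left out the numbers were 2535, 127, 11, 33 and 0. The 3 reversed were Cxcl12 in cells of exactly 1 class (1.44 in Eomes-detected cells from E14.5 to E17.5, and -0.85 for Eomes minus Neurod6) and Ackr3 over the later stages (0.0080 for Eomes minus Neurod6). The replicate block (the pair as a term) was compared for the genotype averages over stages and for all cells at E12.5. There it changed no call of a member other than that of Cxcl12 over all cells at E12.5. Other genotype contrasts of single stages were not part of these counts. Genes called by genotype over all cells were 118 with DESeq2, 21 without a filter on low counts and 253 with the pair as a block. In Eomes-detected cells they were 39 with 1 UMI as the bound, 57 with DESeq2, 8 in cells of exactly 1 class, 14 without the filter and 87 with the block. In Neurod6-detected cells they were 62 with DESeq2, 19 in cells of exactly 1 class, 20 without the filter and 152 with the block, and in Col1a2-detected cells 2 with DESeq2, 1 without doublet removal, 93 without the filter and 17 with the block. Over all cells at E12.5 they were 667 with DESeq2, 75 without doublet removal, 5 without the filter, 2106 with the block and 462 without the 3 E17.5 libraries that stood apart. Genes called by stage in Gad2-detected cells were 1686 with 1 UMI as the bound and 445 with DESeq2 (E12.5 to E14.5), and 640 with 1 UMI, 434 with at least 30 cells and 480 without the filter (E14.5 to E17.5); in Eomes-detected cells of exactly 1 class they were 1980 (E14.5 to E17.5). Gad2 minus Neurod6 called 3590 genes in cells of exactly 1 class, 2949 without TMM, 3491 with at least 30 cells and 3430 without the filter, and Gad2 minus Col1a2 called 5028 with 1 UMI. The causes were not tested.

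With 1 library left out, calls by genotype ranged from 36 to 73 over all cells, 0 to 1476 over all cells at E12.5, 0 to 0 in Gad2-detected, 13 to 81 in Eomes-detected, 23 to 55 in Neurod6-detected and 0 to 38 in Col1a2-detected cells. By stage, E12.5 to E14.5 and E14.5 to E17.5, they ranged from 7585 to 8731 and 5316 to 6897 over all cells, 51 to 759 and 3 to 460 in Gad2-detected, 2701 to 3634 and 2421 to 3430 in Eomes-detected, and 3712 to 4670 and 3769 to 5461 in Neurod6-detected cells. Between classes they ranged from 3437 to 5270 for Gad2 minus Eomes, 2958 to 5833 for Gad2 minus Neurod6, 1738 to 3277 for Gad2 minus Col1a2, 10509 to 10984 for Eomes minus Neurod6, 7968 to 8942 for Eomes minus Col1a2 and 8208 to 9176 for Neurod6 minus Col1a2. Where an arm kept 1 library, it was assumed to vary like the others. Depth limits Cxcr4 and Nrg3 in Gad2-detected cells, where many libraries held 0 to 4 UMIs of them.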

Other observations

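At E17.5 some of the members split by the library code of the labels, with no overlap over both genotypes: Cxcl12 in Eomes-detected and Neurod6-detected cells, Ackr3 and Nrg1 in Gad2-detected cells, Erbb4 in Gad2-detected and Neurod6-detected cells, and Nrg3 in Neurod6-detected cells. The other combinations of member and class overlapped, those of Cxcr4 among them. How many of all genes split by this code was not counted. The split is therefore not to be read as particular to these members. Over all cells of a library, Cxcl12 and Nrg3 also split without overlap. Cxcl12 was at 24.4 to 39.2 CPM in M1 and F1 and at 43.2 to 59.0 CPM in M2 and F2. Nrg3 was at 5.48 to 13.4 and at 1.61 to 3.28 CPM in these sets. In Eomes-detected cells Cxcl12 was at 46.0 to 60.5 CPM in M1 and F1 and at 72.2 to 117 CPM in M2 and F2. In Gad2-detected cells Nrg1 was at 4.26 to 10.1 CPM in M1 and F1 and at 19.1 to 37.2 CPM in M2 and F2; cells without Lhx6, which held more Nrg1, were 25.4% to 40.5% of the class in the former and 40.7% to 81.0% in the latter, and their part in this was not tested. Within these sets, WT and het means of Cxcl12 in Neurod6-detected cells were 22.1 and 18.3 CPM (M1 and F1) and 57.1 and 49.7 CPM (M2 and F2). Those of Erbb4 in Gad2-detected cells were 114 and 218 CPM (M1 and F1) and 44.8 and 48.3 CPM (M2 and F2). With 2 libraries per genotype in a set, no test was made.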
